A study of Mus musculus with 30 samples.

Results

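The mitochondrial genome of the mouse carries 37 annotated genes, and all of them were followed here through 30 retina libraries of 10 groups. They are the genes that the deposited count tables place on chromosome MT: 13 protein-coding genes, 2 rRNA genes and 22 tRNA genes, of 42439 genes in all. Counts of the transcripts of each gene were summed. Start, end and strand of all 37 genes were identical in the GENCODE M21 annotation of GRCm38.

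RNA came from the neural retina of male and female Abca4-/-Rdh8-/- mice on a C57BL/6J background, aged 4 to 6 weeks, and was selected for poly(A) before stranded library construction. These mice lack a retinal transporter and a retinol dehydrogenase that clear all-trans-retinal from photoreceptors, and bright light damages their rods and cones. The combined-drug experiment had 4 groups: light after BMT (BRM, MTP and TAM together), light after MDB (MTP, DOX and BRM together), light with the solvent DMSO, and DMSO with no light. The single-drug experiment had 6 groups: light after BRM (a bromocriptine salt, an agonist of dopamine D2-type receptors), light after MTP (metoprolol, a blocker of the beta-1 adrenergic receptor), light after TAM (tamsulosin) or DOX (doxazosin), both blockers of alpha-1 adrenergic receptors, light with DMSO, and DMSO with no light. Each group had 3 libraries. Exposure was 10000 lux for 30 min, injections were given 30 min before it, and retinas were taken 24 h after it. Cages were kept dim (10 lux or less for 12 h, then 12 h dark), so that no light means housing without the bright exposure. Both disrupted genes are shared by all groups, no group received a drug without light, and the labels do not say whether libraries came from different animals. The p-values below therefore measure the spread between libraries, which may be partly technical.

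The mitochondrial genome encodes core subunits of respiratory complexes I, III and IV and of ATP synthase, together with the rRNAs and tRNAs that translate them inside the organelle. Both strands are copied by the mitochondrial RNA polymerase into long precursors, which are mostly cut at the tRNAs into single messages, and most messages then receive a short poly(A) tail. Photoreceptors pack mitochondria into their inner segments, which makes the outer retina rich in mitochondria. In bulk retina, a loss of cells of one type and less RNA in each cell cannot be told apart.

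Total gene counts were 12.0 M (TAM replicate 1) to 25.8 M (BMT replicate 2) per library, and mitochondrial genes took 885374 to 1882241 of them. Levels of single genes are given as counts per 1 M of the library size after TMM scaling (CPM), and sums over marker lists as counts per 1 M of the unscaled library total. All 10 rod markers passed the count filter, and their summed level ran from 30300.4 to 85554 per 1 M. The summed level of 6 lens fibre genes ran from 3.45 to 2419.8 per 1 M, and crystallin genes took 0.0181% to 5.75% of counts. Lens RNA thus varied between libraries of the same group. Taking crystallins out of the total left every group's mean mitochondrial share within 1 SD of its value. It did change which groups overlapped in that share, as given below.

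Several mitochondrial genes have near-identical copies in nuclear DNA, and these carried a large part of the counts. A stretch of chromosome 1 (chr1:24611535-24616197, GRCm38) holds 7 annotated copies on the minus strand: Gm28439, Gm10222, Gm28438, Gm28437, Gm10925, Gm28661 and Gm29216. Gm28661 is identical to mt-Co2 over 681 bases, Gm28437 to mt-Co3 over 783 bases, Gm10925 to mt-Atp6 over 678 bases, Gm10222 to mt-Nd4l over 294 bases and Gm28439 to mt-Nd4 over 876 bases. Gm28438 differs from mt-Nd3 by 1 base in 345. The first 61 bases of that pair are given because its only difference lies there (T3C, counted from 1 at the first base of the gene, with the mitochondrial base first, capital below):
mt-Nd3 (chrMT:9459-9519, plus strand): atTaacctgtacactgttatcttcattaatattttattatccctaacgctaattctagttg
Gm28438 (chr1:24613059-24613119, minus strand): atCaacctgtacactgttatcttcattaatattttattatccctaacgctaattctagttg

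The whole of mt-Nd4l, a complex I subunit, is given because 1 call below turns on it. Its capitals mark the 3 bases that Gm10222 lacks, and every other base is shared:
mt-Nd4l (chrMT:9877-10173, plus strand): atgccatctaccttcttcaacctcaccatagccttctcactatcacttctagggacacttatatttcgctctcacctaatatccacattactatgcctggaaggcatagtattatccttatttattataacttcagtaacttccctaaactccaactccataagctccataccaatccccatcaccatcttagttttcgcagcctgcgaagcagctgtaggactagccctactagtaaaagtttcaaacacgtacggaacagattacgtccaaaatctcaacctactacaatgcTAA

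mt-Atp8, an ATP synthase subunit, overlaps mt-Atp6 by 43 bases, shown in capitals. Reads of this stretch belong to both genes:
mt-Atp8 (chrMT:7766-7969, plus strand): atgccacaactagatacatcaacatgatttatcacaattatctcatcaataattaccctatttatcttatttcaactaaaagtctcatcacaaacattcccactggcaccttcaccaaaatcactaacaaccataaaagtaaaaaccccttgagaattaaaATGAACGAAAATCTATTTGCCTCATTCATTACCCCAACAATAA

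The split of counts between a mitochondrial gene and its copy differed from pair to pair and was mostly steady across libraries. Gm28661 received 63.9% to 70.0% of the counts of its pair with mt-Co2, and Gm28437 received 57.2% to 59.5% of its pair with mt-Co3. Gm10925 took 42.3% to 55.6% of the mt-Atp6 pair, with the lowest value in DOX replicate 3 and 47.9% or more elsewhere. Gm29216, which matches mt-Co1 over 483 bases with 1 difference, took at most 2.73%, and Gm28439 took at most 2.01% of the mt-Nd4 pair. Gm10222 took 34.3% to 49.4% of the mt-Nd4l pair in 29 libraries but 2.70% in MTP replicate 2. Gm28438 took 52.4%, 53.6% and 54.7% of the mt-Nd3 pair in light libraries of the combined-drug experiment, against 64.9%, 62.9% and 61.6% with no light. In that experiment light and no light did not overlap. Gm28438 took, in the single-drug experiment, 60.3%, 64.1% and 61.1% with light, against 61.0%, 58.3% and 58.4% with no light, and the groups overlapped. Levels of mt-Co2, mt-Co3, mt-Atp6, mt-Nd3 and mt-Nd4l therefore depend on how the authors' quantification divided identical sequence, and each was also tested with its copies added. Copies on chromosomes 2 and 13 that match mitochondrial genes at 95% identity or more held at most 89.0 counts in any library.

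**Figure D1:**
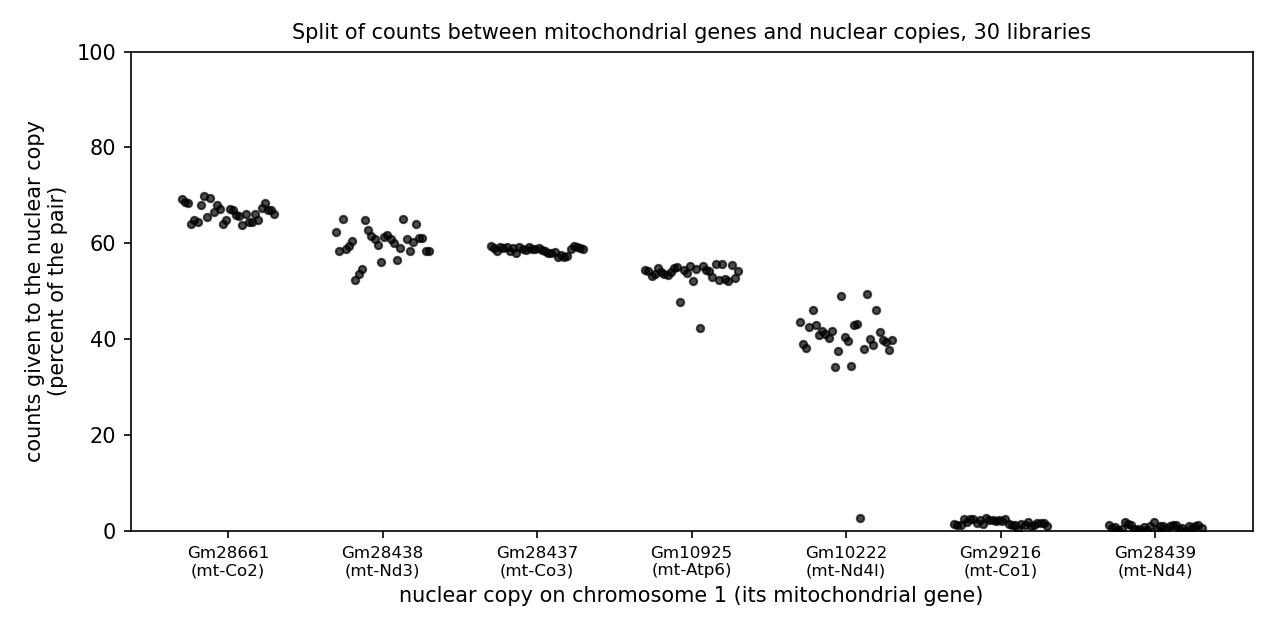
Percent of the counts of each pair given to the nuclear copy on chromosome 1, with 1 point per library and 30 libraries per pair; the pairs are on the horizontal axis. Gm28661 lies between 63.9% and 70.0% in all libraries, and Gm10222 has 1 library at 2.70%.

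Among the 37 genes, 15 were counted in every library and passed the filter on low counts, and all 22 tRNA genes fell below it. mt-Tl1, a leucine tRNA, and mt-Tm, the methionine tRNA, had the most counts of the tRNAs, at 13.5 and 10.6 summed over all libraries. mt-Tn followed with 2.33, mt-Tw with 1.49 and mt-Tq with 1.44. The sequence of mt-Tl1 shows how short these molecules are in comparison with the messages above:
mt-Tl1 (chrMT:2676-2750, plus strand): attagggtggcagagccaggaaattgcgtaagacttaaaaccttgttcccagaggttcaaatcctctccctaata

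Levels per length spanned a wide range, although all heavy-strand genes are copied as parts of long precursors. With copies added, mt-Atp6 had a median over libraries of 13022 counts per kilobase per 1 M gene counts, mt-Co2 had 12037, mt-Co1 11812 and mt-Co3 10718. mt-Atp8 stood higher still at 22886, but its value includes reads of the overlap with mt-Atp6. The only complex III message, mt-Cytb, stood at 7576. Complex I messages lay lower, at 6306 for mt-Nd1, 6199 for mt-Nd3, 6133 for mt-Nd4l, 5526 for mt-Nd4, 4309 for mt-Nd2 and 2769 for mt-Nd5. The 16S rRNA mt-Rnr2 had 1374 and the 12S rRNA mt-Rnr1 had 642 counts per kilobase per 1 M. mt-Nd6, the only message on the other strand and one known in human cells to lack a poly(A) tail, was lowest at 164. The libraries were selected for poly(A), so levels of the rRNAs, mt-Nd6 and the tRNAs here are not their levels in the cell.

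In deposited FPKM of the mitochondrial genes alone, without copies, mt-Co1 had a median of 12689 and mt-Co2 of 4328, although the pair stood close together once copies were added. By counts, mt-Co1 took 24.8% to 27.1% of all mitochondrial counts, mt-Cytb 11.6% to 12.8%, mt-Nd4 10.2% to 11.4% and mt-Nd1 8.03% to 9.13%. These 4 messages kept similar shares in all libraries. Others varied more: mt-Nd6 took 0.0829% to 0.236%, mt-Nd4l 1.33% to 2.64%, mt-Atp6 5.25% to 7.25% and mt-Nd3 1.06% to 1.56%, without their copies.

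The mitochondrial share of all gene counts was 6.08% to 9.07%, with a median of 6.96%. In the combined-drug experiment it was 7.23%, 7.29% and 9.07% with BMT, 6.08%, 7.12% and 6.41% with MDB, 6.496%, 6.73% and 6.68% with light, and 7.63%, 6.31% and 6.89% with no light. All BMT libraries lay above all light libraries and all MDB libraries, and the other pairs of groups overlapped. Without crystallins in the total, BMT still lay above light, but BMT replicate 1 (7.25%) fell below MDB replicate 2 (7.33%). In the single-drug experiment the share was 6.65%, 7.03% and 6.32% with BRM and 7.95%, 6.51% and 7.69% with MTP. It was 7.36%, 7.20% and 7.51% with TAM and 6.64%, 6.19% and 7.54% with DOX. It stood at 7.17%, 6.79% and 6.77% with light, and at 7.11%, 6.88% and 7.75% with no light. TAM lay above light in all libraries, and every other drug overlapped both light and no light. The gap was narrow, with TAM replicate 2 at 7.20% and light replicate 1 at 7.17%. Without crystallins in the total these libraries stood at 7.23% and 7.30%, so TAM and light overlapped. They also overlapped with nuclear copies added and as a share of summed FPKM.

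Group means of the share ordered from BMT (7.86 ± 1.05%) through MTP (7.39 ± 0.76%) and TAM (7.36 ± 0.15%) down to light in the combined-drug experiment (6.64 ± 0.13%) and MDB (6.54 ± 0.53%; SD, n = 3 each). Apart from BMT over light and MDB and TAM over light, libraries of the groups compared overlapped. Among these separations, only BMT over light remained without crystallins in the total. With nuclear copies added the share was 7.65% to 11.4%, and it was highest in BMT replicate 3 and lowest in MDB replicate 1 in either form.

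The part of mitochondrial counts that came from rRNA was higher after light than with no light in both experiments, without overlap. mt-Rnr1 and mt-Rnr2 together made up 4.42%, 4.87% and 4.49% of mitochondrial counts in light libraries of the combined-drug experiment, against 3.68%, 3.99% and 3.73% with no light. In the single-drug experiment they made up 4.17%, 4.14% and 4.29% with light, against 3.97%, 3.69% and 3.70% with no light. All drug libraries lay below the light libraries of their experiment: 3.58% to 4.07% with BMT, 3.68% to 4.19% with MDB, 3.69% to 3.77% with BRM, 3.44% to 3.84% with MTP, 3.25% to 4.12% with TAM and 3.64% to 4.03% with DOX. This ratio lies within the mitochondrial RNA and so does not depend on library scaling, and it is a description with no test. With the copies added to the total, the group means were 3.67% with light and 3.01% with no light in the combined-drug experiment, and 3.36% with light and 3.03% with no light in the single-drug experiment.

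Nuclear-retained transcripts such as Malat1 and Neat1 were examined beside this ratio, as RNAs that poly(A) selection may recover unlike cytoplasmic messages. Per 1 M of the unscaled library total, they summed to 2074 to 2293 with BMT, 2371 to 2515 with MDB, 2313 to 3240.1 with light and 2049 to 2128 with no light in the combined-drug experiment. In the single-drug experiment they summed to 2157 to 3019.8 with BRM, 2185 to 3956 with MTP, 2111 to 3244 with TAM, 1697 to 2792 with DOX, 2378 to 3268 with light and 1955 to 2249 with no light. On this scale light lay above no light in both experiments and above BMT, and it overlapped every other drug. On the TMM scale light and no light overlapped, at 2106 to 3080 with light and 2099.7 to 2182 with no light in the combined-drug experiment, and at 2184 to 2925 with light and 2005 to 2416 with no light in the single-drug experiment. Of the 7 such genes, 1 rose with light in each experiment (14.3% of them, beside 7.75% of all genes in the combined-drug experiment and 11.4% in the single-drug experiment) and 0 fell. The gene was not the same: Neat1 rose in the combined-drug experiment and Rian in the single-drug experiment. RNAs without a poly(A) tail, such as Rmrp and Rpph1, were at most 4.99 per 1 M in sum. The part of selection efficiency in the rRNA ratio was not tested.

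**Figure D2:**
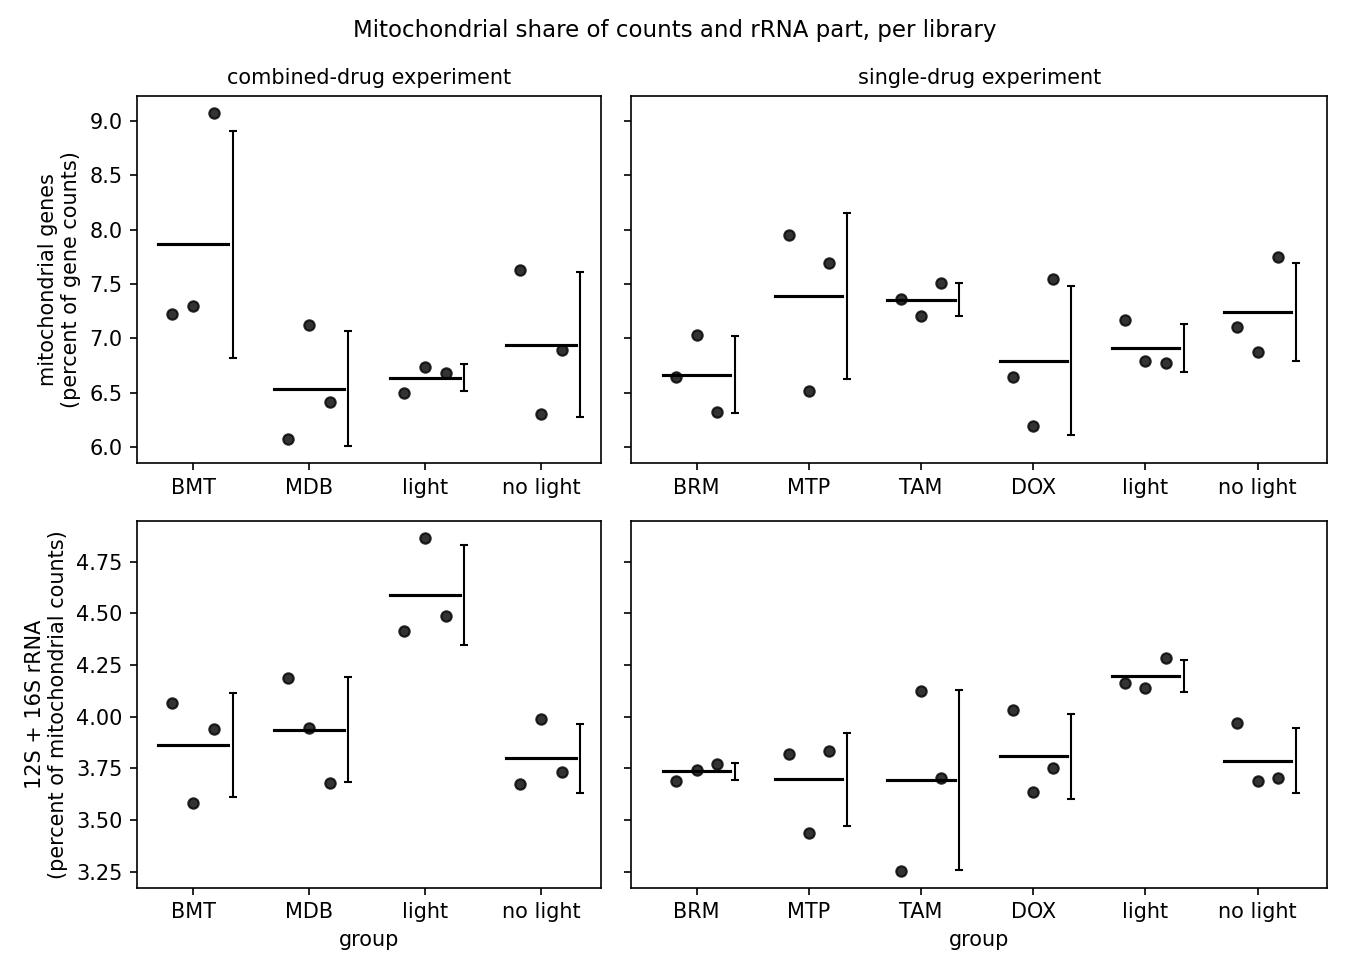
Percent of gene counts in mitochondrial genes (upper panels) and percent of mitochondrial counts in the 2 rRNAs (lower panels), with 1 point per library, a line at the group mean and a bar of 1 SD beside it (n = 3). The vertical axes do not start at 0. BMT replicate 3 stands at 9.07% in the upper left panel, and light libraries are highest in both lower panels.

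Some mitochondrial messages were lower with light than with no light, relative to other genes, in the single-drug experiment. Of the 15 genes tested, 4 fell with light against no light and none rose, by edgeR's quasi-likelihood test at a Benjamini-Hochberg adjusted p under 0.05, where 24.0% of 16249 genes were called, 11.4% rose and 12.6% fell. Those 4 were mt-Cytb of complex III and mt-Nd4, mt-Nd4l and mt-Nd5 of complex I, which follow one another on the plus strand of the genome. The median log2 fold change of the 15 genes was -0.27, against 0.02 over all genes. In 8 of the 15, all light libraries lay below all no-light libraries, as in 20.1% of all genes, and in 0 they lay above, as in 20.3% of all genes. The 15 genes share the scaling of each library, so here and below such counts are not counts of independent genes. The call rested partly on scaling and on single libraries: library totals without TMM, which moved the median of all genes to 0.23 and that of the 15 genes to -0.06, gave 0 calls, and 1 gene was called without no-light replicate 3 and 6 without light replicate 1.

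mt-Nd5 (ENSMUSG00000064367, chrMT:11742-13565) stood at 4537, 4481 and 4416 CPM with light, against 6084, 5389 and 6505 CPM with no light. Its light libraries were close together and all below the others. The log2 fold change was -0.42 ± 0.10 (SE), with an adjusted p of 0.00768 by edgeR's quasi-likelihood test. mt-Nd4 (ENSMUSG00000064363, chrMT:10167-11544) stood at 6804, 6359 and 6646 CPM with light, against 8676, 8052 and 9465 CPM with no light. It fell by 0.40 on the log2 scale (SE 0.10, edgeR adjusted p = 0.0103), again with no overlap. mt-Cytb (ENSMUSG00000064370, chrMT:14145-15288), the cytochrome b subunit, stood at 7697, 7064 and 7360 CPM with light, against 9499, 8881 and 10443 CPM with no light. It fell by 0.38 (SE 0.10, edgeR adjusted p = 0.0148). mt-Nd4l (ENSMUSG00000065947) stood at 1006, 916 and 902 CPM with light, against 1225, 1156 and 1492 CPM with no light. Its log2 fold change was -0.46 ± 0.12 (edgeR adjusted p = 0.0111), and -0.37 (adjusted p = 0.0437) with Gm10222 added. With copies added, mt-Atp6 passed the threshold too, at -0.31 (edgeR adjusted p = 0.0372).

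The other 11 members were not called. mt-Co1 (ENSMUSG00000064351, chrMT:5328-6872), the catalytic subunit of cytochrome oxidase, stood at 17593, 16463 and 16425 CPM with light, against 19247, 17929.6 and 20644 CPM with no light. Its light libraries lay below, at a log2 fold change of -0.20 ± 0.10 that missed the threshold (edgeR adjusted p = 0.181). mt-Rnr1 stood at 661, 624 and 648 CPM with light, against 637, 543 and 657 CPM with no light, and mt-Rnr2 at 2114, 1892 and 2018 CPM with light, against 2391, 2059.5 and 2428 CPM with no light. Both rRNAs overlapped between the groups, at log2 fold changes of 0.07 ± 0.13 and -0.19 ± 0.12. mt-Nd6 stood at 67.5, 82.9 and 62.7 CPM with light, against 157, 62.7 and 115 CPM with no light. It had the lowest fold change of the 15, -0.65 ± 0.24 (edgeR adjusted p = 0.0622), and its light and no-light libraries overlapped. mt-Nd6 shares 14 bases with mt-Nd5 on the opposite strand. The kit marks strand, but the strand setting of the quantification is not given in the sources used here.

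In the combined-drug experiment no mitochondrial gene was called for light against no light by edgeR's quasi-likelihood test, where 13.2% of 16007 genes were called, 7.75% higher and 5.47% lower. Of the 15 genes, 2 had an unadjusted p under 0.05, as had 4228 of all 16007 genes by the same edgeR test. limma voom called 0 of the 15 and DESeq2 called 1. The median log2 fold change was -0.24, against 0.01 over all genes. In 10 of the 15, all light libraries lay below all no-light libraries, as in 13.7% of all genes, and in 1, mt-Nd3, they lay above, as in 16.5% of all genes. mt-Cytb stood at 7105, 7165 and 7593 CPM with light, against 9879, 8146 and 8834 CPM with no light, at -0.30 ± 0.13. mt-Co1 stood at 15489, 15949 and 16259.6 CPM with light, against 20262, 16800.3 and 17684 CPM with no light, at -0.20 ± 0.12. In both genes no light replicate 1 was highest. mt-Rnr1 stood at 607, 702 and 629.6 CPM with light, against 589, 611 and 544 CPM with no light, and mt-Rnr2 at 2006, 2281 and 2221 CPM with light, against 2288, 2014 and 2074 CPM with no light. mt-Nd6 stood at 94.1, 97.1 and 149.8 CPM with light, against 96.8, 92.1 and 83.9 CPM with no light. These 3 overlapped between the groups. The log2 fold change of mt-Nd3 was 0.17 ± 0.11, and -0.17 ± 0.13 with Gm28438 added, so its direction changed when the copy was added.

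The light effects of the experiments were also compared directly, as light over no light in the single-drug experiment minus the same in the combined-drug experiment. None of the 15 genes was called by edgeR's quasi-likelihood test, and 0.00% of 16645 genes were. Of the 15, 2 had an unadjusted p under 0.05, as had 2517 of all 16645 genes by the same edgeR test. DESeq2 and limma voom called 0 of the 15. The median difference of the 15 was -0.08 on the log2 scale, and for mt-Nd5 it was -0.15 ± 0.16.

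**Figure D3:**
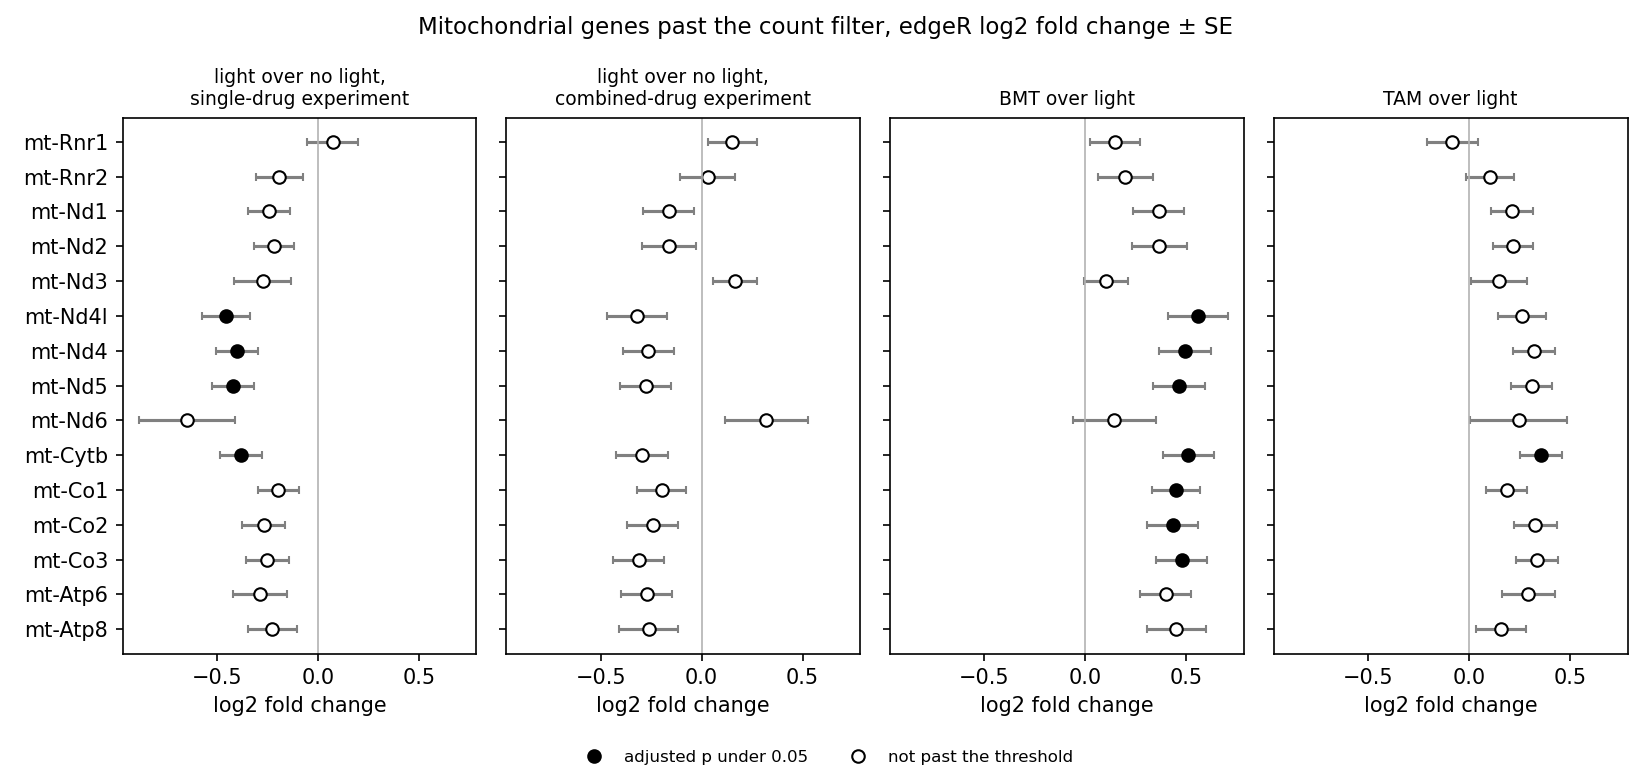
Log2 fold change (horizontal axis) with its SE for the 15 mitochondrial genes past the count filter in 4 comparisons, with filled points for an adjusted p under 0.05. Filled points are on the left of 0 for light in the single-drug experiment (4 genes) and on the right for BMT over light (7 genes) and TAM over light (1 gene).

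After BMT, some mitochondrial messages were higher than after light alone. Of the 15 genes, 7 rose and none fell by edgeR's quasi-likelihood test, where 17.7% of 16007 genes were called, 7.96% rose and 9.78% fell. They were mt-Co1, mt-Co2 and mt-Co3 of cytochrome oxidase, mt-Cytb, and mt-Nd4, mt-Nd4l and mt-Nd5. The median log2 fold change of the 15 was 0.43, against -0.02 over all genes. In 11 of the 15, all BMT libraries lay above all light libraries, as in 17.2% of all genes, and in 0 they lay below, as in 21.9%.

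mt-Cytb stood at 9298, 9299.8 and 12557 CPM with BMT, against 7105, 7165 and 7593 CPM with light. Its log2 fold change was 0.51 ± 0.13 (edgeR adjusted p = 0.0188). mt-Nd4 stood at 8126, 8284 and 11206 CPM with BMT, against 6211, 6505 and 6899.7 CPM with light, at 0.49 ± 0.13 (edgeR adjusted p = 0.0214). BMT replicate 3 stood well above the other BMT libraries in both genes. mt-Co3, a core subunit of cytochrome oxidase, stood at 3826, 3754 and 5097 CPM with BMT, against 2969, 2929 and 3204 CPM with light, at 0.48 ± 0.13 (edgeR adjusted p = 0.0232). mt-Nd4l stood at 1110.4, 1229 and 1623 CPM with BMT, against 873, 877 and 943 CPM with light, at 0.56 ± 0.15 (edgeR adjusted p = 0.0247). mt-Co1 stood at 19707, 19452 and 25944 CPM with BMT, against 15489, 15949 and 16259.6 CPM with light, at 0.45 ± 0.12 (edgeR adjusted p = 0.0253). The groups did not overlap in any of these genes. With copies added 8 of the 15 were called, among them mt-Atp6 at 0.40 (edgeR adjusted p = 0.0359).

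The rRNAs and mt-Nd6 were not called with BMT. mt-Rnr1 stood at 671, 621 and 856 CPM with BMT, against 607, 702 and 629.6 CPM with light, and mt-Rnr2 at 2347, 2033 and 3089 CPM with BMT, against 2006, 2281 and 2221 CPM with light. Both overlapped, at 0.15 ± 0.12 and 0.20 ± 0.14. mt-Nd6 stood at 161, 95.2 and 121 CPM with BMT, against 94.1, 97.1 and 149.8 CPM with light, also with overlap.

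The BMT call rested on few libraries. Without BMT replicate 3 the median was 0.27 and none of the 15 genes was called, and none was called without light replicate 1 or without light replicate 2. It also depended on scaling: light libraries had TMM factors of 1.05 to 1.10 and BMT replicate 3 had 0.907. With library totals alone, which moved the median of all genes to -0.20, 2 genes were called and the median of the 15 was 0.25.

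MDB gave no mitochondrial call against light by edgeR's quasi-likelihood test, where 9.63% of 16007 genes were called, 3.70% higher and 5.93% lower. None of the 15 genes had an unadjusted p under 0.05, beside 3735 of all 16007 genes by the same edgeR test. DESeq2 and limma voom called 0 of the 15, and their median log2 fold change was 0.07. mt-Cytb stood at 7239, 8919 and 8222 CPM with MDB and mt-Co1 at 15291, 18232 and 16513 CPM, both overlapping light. mt-Rnr1 stood at 623, 647 and 522 CPM, mt-Rnr2 at 1885, 2211 and 1862 CPM and mt-Nd6 at 87.9, 91.6 and 69.6 CPM with MDB. All MDB libraries lay below all light libraries in 1 of the 15 genes, mt-Nd6, as in 16.8% of all genes, and above in 0, as in 16.5%. BMT and MDB differ by TAM in place of DOX. Between them edgeR called none of the 15 genes and 0.00% of all genes. By that test 12 of the 15 had an unadjusted p under 0.05, beside 3001 of all 16007 genes. DESeq2 called 3 of the 15 and limma voom 0. BMT lay above MDB without overlap in 8 of the 15, as in 13.1% of all genes, and below it in 0, as in 13.9%, at a median log2 fold change of 0.32. mt-Co1, for example, was higher with BMT by 0.38 ± 0.12 (edgeR adjusted p = 0.187).

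**Figure D4:**
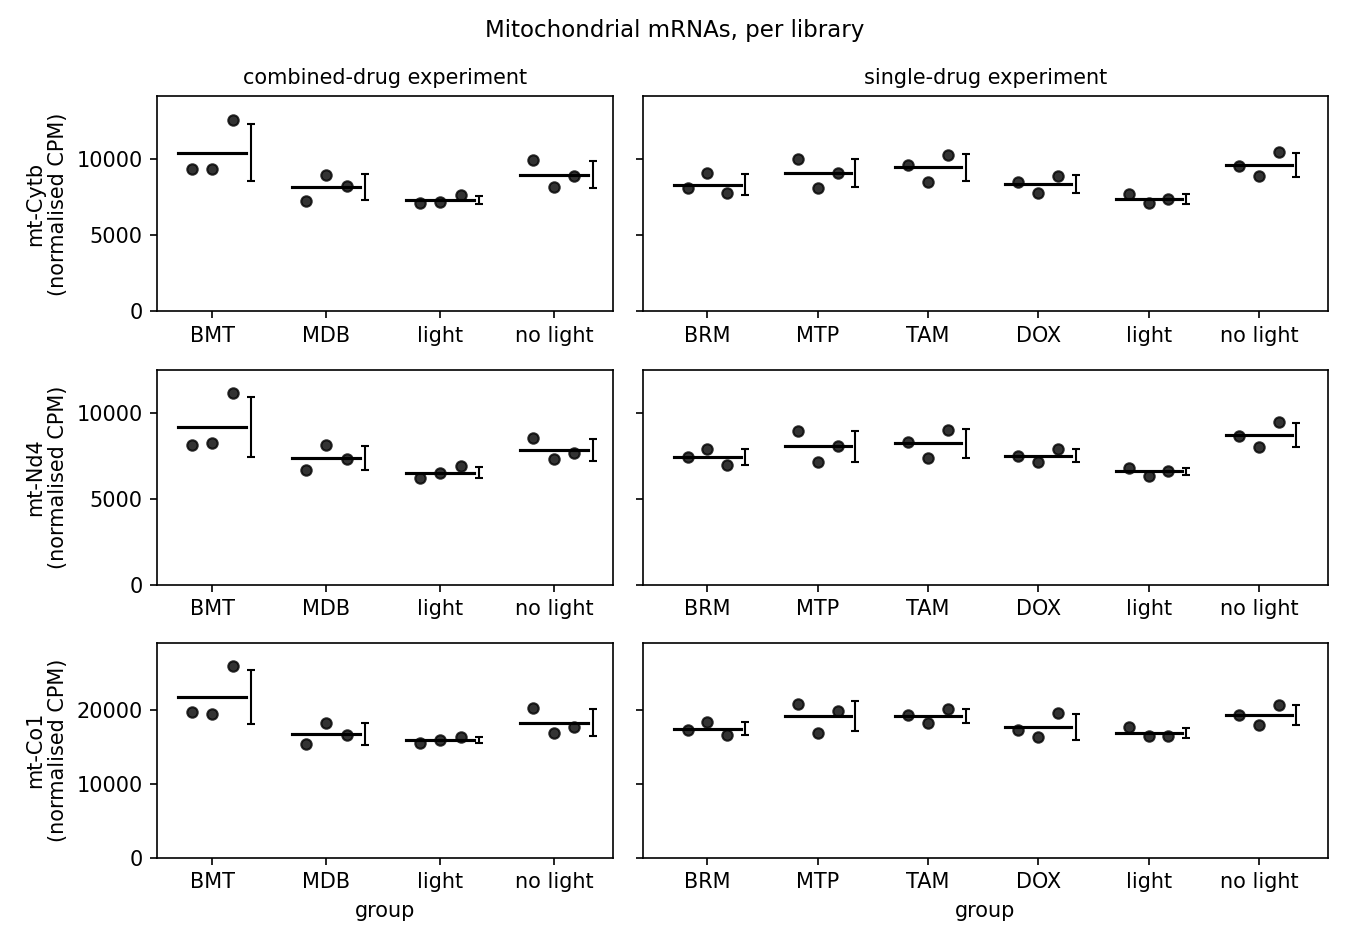
Normalised CPM of mt-Cytb, mt-Nd4 and mt-Co1 by group, with 1 point per library, a line at the group mean and a bar of 1 SD (n = 3). BMT lies above light in all 3 genes, with BMT replicate 3 highest, and in the single-drug experiment light lies below no light.

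Single drugs gave few mitochondrial calls against light, 1 for MTP and 1 for TAM. With TAM mt-Cytb rose, 1 of 15 genes, where 10.6% of 16249 genes were called, 6.60% rose and 4.00% fell. mt-Cytb stood at 9612, 8493 and 10234 CPM with TAM, against 7697, 7064 and 7360 CPM with light. The groups did not overlap, and the log2 fold change was 0.36 ± 0.10 (edgeR adjusted p = 0.0396). In 9 of the 15 genes TAM lay above light in all libraries, as in 13.6% of all genes, and in 0 below, as in 14.2%, and the median log2 fold change was 0.25. The mt-Cytb call held in 1 of 6 fits that left out a library, the one without TAM replicate 2, in which 5 of the 15 genes were called. Without light replicate 1, 2 other genes were called, and without TAM replicate 1, TAM replicate 3, light replicate 2 or light replicate 3 none was. mt-Co1 stood at 19307, 18135 and 20035 CPM with TAM, at 0.19 ± 0.10 over light. mt-Rnr1 stood at 514, 680.3 and 631 CPM, mt-Rnr2 at 1925, 2205 and 2346 CPM and mt-Nd6 at 71.7, 79.9 and 101 CPM with TAM.

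With MTP mt-Nd4l rose, 1 of 15 genes, where 10.3% of all genes were called, 5.37% rose and 4.91% fell. MTP lay above light in all libraries in 5 of the 15, as in 13.4% of all genes, and below in 0, as in 16.4%. Without MTP replicate 2, or without light replicate 1, 3 genes were called. mt-Nd4l stood at 1291, 1753 and 1407 CPM with MTP, against 1006, 916 and 902 CPM with light, at 0.66 ± 0.12 (edgeR adjusted p = 0.00342). The highest value, in MTP replicate 2, is the library in which Gm10222 received 2.70% of the pair. The mt-Nd4l call held in all 6 fits that left out a library, the one without MTP replicate 2 included (edgeR adjusted p from 0.00765 to 0.0190). With Gm10222 added, the pair stood at 2224, 1770.3 and 2296 counts per 1 M of the library total with MTP, against 2008, 1748 and 1633 with light, and MTP replicate 2 lay below light replicate 1. The log2 fold change was then 0.36 (edgeR adjusted p = 0.0801), and no mitochondrial gene was called. The median of the 15 genes with MTP was 0.26. mt-Cytb stood at 9953, 8101 and 9067 CPM, mt-Co1 at 20791, 16889 and 19841 CPM, mt-Rnr1 at 724, 518 and 696 CPM, mt-Rnr2 at 2375, 1762 and 2217 CPM and mt-Nd6 at 89.7, 62.2 and 78.2 CPM with MTP. MTP replicate 2 was lowest in each of these.

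BRM and DOX gave no mitochondrial call against light by edgeR's quasi-likelihood test, where 14.4% of all genes were called with BRM (7.07% higher, 7.32% lower) and 11.9% with DOX (6.79% higher, 5.06% lower). BRM lay above light in all libraries in 3 of the 15, as in 19.0% of all genes, and below in 0, as in 20.5%. DOX lay above in 4, as in 13.7% of all genes, and below in 0, as in 17.6%. Of the 15 genes, 0 with BRM and 1 with DOX had an unadjusted p under 0.05. Of all 16249 genes, 4775 with BRM and 4653 with DOX did by the same edgeR test. DESeq2 and limma voom called 0 of the 15 for either drug. The median log2 fold change was 0.04 with BRM and 0.07 with DOX. mt-Cytb stood at 8106, 9050 and 7747 CPM with BRM and at 8447, 7727 and 8832 CPM with DOX, above the light libraries in each. mt-Co1 stood at 17301, 18301 and 16573 CPM with BRM and at 17211, 16234 and 19576 CPM with DOX, and overlapped light. With BRM, mt-Rnr1 stood at 582, 626 and 599 CPM, mt-Rnr2 at 1847, 2054 and 1814 CPM and mt-Nd6 at 62.5, 71.0 and 58.8 CPM. With DOX, mt-Rnr1 stood at 597, 517 and 644 CPM, mt-Rnr2 at 2116, 1758 and 2122 CPM and mt-Nd6 at 70.4, 62.7 and 61.1 CPM.

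Against no light, edgeR's quasi-likelihood test called no mitochondrial gene for any drug, and it called 0.00% of all genes in each of those comparisons. The number of the 15 genes with an unadjusted p under 0.05 was 3 for BMT, 0 for MDB, 5 for BRM, 1 for MTP, 0 for TAM and 4 for DOX. Of all 16007 genes of the combined-drug experiment, 1009 passed that limit for BMT and 1642 for MDB. Of all 16249 genes of the single-drug experiment, 2535 did for BRM, 1395 for MTP, 1327 for TAM and 2109 for DOX. DESeq2 called 2 for BRM and 0 for the others, and limma voom called 0. Median log2 fold changes were 0.21 for BMT, -0.13 for MDB, -0.21 for BRM, -0.04 for MTP, -0.03 for TAM and -0.20 for DOX. All libraries of BMT lay above no light in 1 of the 15 genes (4.46% of all genes) and below in 0 (4.72%), and those of MDB above in 0 (7.57%) and below in 0 (7.05%). BRM lay below no light in 6 (15.1%) and above in 0 (10.2%), and DOX below in 5 (10.4%) and above in 0 (7.29%). MTP lay above in 0 (5.78%) and below in 0 (10.2%), and TAM above in 0 (4.66%) and below in 0 (6.49%). All comparisons within an experiment share their light or no-light libraries.

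Markers of rods and of Müller glia moved in the same samples. The summed level of 10 rod markers was 69225 to 84593 per 1 M with BMT, 65782 to 74272 with MDB, 45568 to 53501 with light and 70276 to 85554 with no light in the combined-drug experiment. In the single-drug experiment it was 57190.3 to 70809.7 per 1 M with BRM, 61607 to 73917 with MTP, 58913 to 82882 with TAM, 59022 to 80296 with DOX, 30300.4 to 40795 with light and 79153 to 82390.1 with no light. Every drug group lay above light without overlap. Of the 10, 9 fell with light in the combined-drug experiment and 10 in the single-drug experiment, at median log2 fold changes of -0.87 and -1.32. Over light, all 10 rose with BMT, MTP, TAM and DOX, and 9 rose with MDB and with BRM. Rod markers were higher in the drug groups with a mitochondrial call over light and in those without one, MDB, BRM and DOX. A missing call does not show an unchanged level, and 1 gene does not show a raised one. The lowest mt-Cytb value was 7747 CPM with BRM and 7727 CPM with DOX, narrowly above the highest with light, 7697 CPM. The median log2 fold change of the mitochondrial genes over light was 0.04 with BRM and 0.07 with DOX.

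The sum of 5 Müller glia markers was 1365 to 1894 per 1 M with BMT, 1799 to 1954 with MDB, 912 to 962 with light and 1608 to 1915 with no light in the combined-drug experiment. In the single-drug experiment it was 1975 to 2149 per 1 M with BRM, 1678 to 2136 with MTP, 950 to 1868 with TAM, 1291 to 1593 with DOX, 1061 to 1241 with light and 1567 to 1988 with no light. Light lay below no light without overlap in both experiments, and TAM was the only drug group that overlapped light. The markers did not move one way: with light, Glul, the glutamine synthetase of these glia, fell by 1.87 and 1.73 on the log2 scale in the combined-drug and single-drug experiments, whereas Slc1a3, a glutamate transporter, rose by 0.75 and 0.89. The part of rod and Müller glia content in the mitochondrial values was not tested.

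Nuclear genes for respiratory subunits, 75 in all, were called less often than all genes, counting both directions, in each comparison with calls. With light in the single-drug experiment 17.3% of the list was called beside 24.0% of all genes. With DOX over light it was 10.7% beside 11.9%. Shares given next are for single directions. With light in the single-drug experiment 13 fell, or 17.3% of the list beside 12.6% of all genes, and 0 rose. In the combined-drug experiment 5 fell, or 6.67% beside 5.47% of all genes, and 0 rose. Against light, 10 rose with BMT (13.3% beside 7.96% of all genes), 8 with DOX (10.7% beside 6.79%) and 6 with BRM (beside 7.07% of all genes). With TAM 4 rose (5.33% beside 6.60%), with MTP 1 (1.33% beside 5.37%) and with MDB 0 (beside 3.70%), and none fell in any of these. The median log2 fold change for light was -0.16 in the single-drug experiment, beside -0.27 for the mitochondrial genes, and -0.14 in the combined-drug experiment, beside -0.24. Over light it was 0.16 with BMT beside 0.43 for the mitochondrial genes, 0.10 with MTP beside 0.26 and 0.07 with TAM beside 0.25. With BRM it was 0.09 beside 0.04 for the mitochondrial genes, with DOX 0.12 beside 0.07 and with MDB 0.08 beside 0.07.

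Among 37 nuclear genes that serve mitochondrial transcription, RNA processing or genome copying, a few were called with light, in either direction. In the single-drug experiment 3 rose and 5 fell, 21.6% of the list beside 24.0% of all genes, and in the combined-drug experiment 2 rose and 4 fell, 16.2% beside 13.2%. For light the list's shares were thus near those of all genes, and its medians were 0.03 and -0.02. Over light, the share called in either direction was 27.0% with BMT beside 17.7% of all genes. It was 10.8% with MDB beside 9.63%, and 13.5% with BRM beside 14.4%. With MTP, TAM and DOX it was 18.9%, beside 10.3%, 10.6% and 11.9% of all genes. Pnpt1, polynucleotide phosphorylase, an RNA-degrading enzyme of mitochondria that interferon is known to induce, rose with light in both experiments. It stood at 42.8, 39.7 and 38.1 CPM with light, against 23.3, 20.6 and 22.1 CPM with no light in the single-drug experiment, at 0.87 ± 0.09 (edgeR adjusted p = 4.87e-05). In the combined-drug experiment it stood at 37.0, 33.8 and 37.3 CPM with light, against 25.3, 18.7 and 21.8 CPM with no light, at 0.72 ± 0.11 (edgeR adjusted p = 0.00106). Light libraries lay above all others in both experiments.

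Pnpt1 was lower after each drug than after light alone. Its log2 fold change over light was -0.68 ± 0.11 with BMT, -0.57 ± 0.11 with MDB, -0.77 ± 0.09 with BRM, -0.63 ± 0.09 with MTP, -0.62 ± 0.09 with TAM and -0.80 ± 0.09 with DOX. The edgeR adjusted p ran from 0.000245 for DOX to 0.00524 for MDB. Against no light its difference was 0.04 with BMT and 0.25 with TAM, and not called for any drug.

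Lrpprc, whose protein binds mitochondrial messages and keeps them stable, went the other way. It stood at 68.5, 66.6 and 64.8 CPM with light, against 98.4, 98.1 and 97.4 CPM with no light in the single-drug experiment, and fell by 0.56 (SE 0.07, edgeR adjusted p = 0.000159). In the combined-drug experiment it stood at 64.7, 70.0 and 72.5 CPM with light, against 94.9, 90.5 and 85.1 CPM with no light, at -0.39 ± 0.09 (edgeR adjusted p = 0.0148). Light libraries lay below all no-light libraries in both. Over light it rose by 0.47 ± 0.07 with MTP, 0.46 ± 0.07 with TAM, 0.30 ± 0.07 with DOX and 0.28 ± 0.07 with BRM (edgeR adjusted p from 0.00162 to 0.0219). With BMT it rose by 0.40 ± 0.09 (edgeR adjusted p = 0.0115), and with MDB it differed by 0.29 ± 0.09 (edgeR adjusted p = 0.0642). The light call in the combined-drug experiment was lost without light replicate 1 or no-light replicate 1, and the BMT call without BMT replicate 3 or light replicate 1. The BRM call was lost without BRM replicate 2 or light replicate 2, and the DOX call without DOX replicate 1 or light replicate 2.

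The coactivators of mitochondrial biogenesis Ppargc1a and Ppargc1b were also lower with light. Ppargc1b stood at 10.8, 8.15 and 9.73 CPM with light, against 36.2, 36.6 and 30.2 CPM with no light in the single-drug experiment, and fell by 1.85 (SE 0.25, edgeR adjusted p = 0.000158). In the combined-drug experiment it stood at 16.3, 15.5 and 16.9 CPM with light, against 21.1, 35.3 and 38.4 CPM with no light, at -0.96 ± 0.19 (edgeR adjusted p = 0.00615). Ppargc1a fell by 0.62 (SE 0.11) in the single-drug experiment and by 0.40 (SE 0.08) in the combined-drug experiment. Over light, Ppargc1b rose by 1.61 ± 0.25 with BRM, 1.51 ± 0.25 with DOX, 1.35 ± 0.24 with MTP, 1.28 ± 0.25 with TAM and 1.13 ± 0.19 with MDB (edgeR adjusted p from 0.00145 to 0.00432), and by 0.69 ± 0.19 with BMT (edgeR adjusted p = 0.0308), a call that held in 0 of 6 fits that left out a library. Ppargc1a rose by 0.64 ± 0.08 with BMT and by 0.43 ± 0.08 with MDB. Polg2, the accessory subunit of the mitochondrial DNA polymerase, rose by 1.02 ± 0.13 with BMT and by 0.86 ± 0.13 with MDB. Both genes were also called higher with MTP, TAM and DOX, and neither was called with BRM. Each of those MTP, TAM and DOX calls was lost in 1 or more fits that left out a library. Polg2 fell by 0.76 (SE 0.13) with light in the combined-drug experiment, where its libraries stood at 21.5, 21.6 and 20.4 CPM with light, against 38.5, 30.7 and 38.7 CPM with no light. In the single-drug experiment Polg2 fell by 1.10 with light (SE 0.22, edgeR adjusted p = 0.00233). Polg, the catalytic subunit of that polymerase, fell by 0.45 (SE 0.09) with BMT over light. Tfb2m, a transcription initiation factor of mitochondria, rose by 0.34 (SE 0.08) with light in the single-drug experiment (edgeR adjusted p = 0.00679). Over light it fell by 0.33 (SE 0.08) with BRM, by 0.33 (SE 0.08) with MTP and by 0.33 (SE 0.08) with DOX. Among 6 fits that left out a library, the call held in 1 for BRM (without light replicate 3), in 2 for MTP (without MTP replicate 2 or light replicate 3) and in 2 for DOX (without DOX replicate 3 or light replicate 3).

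**Figure D5:**
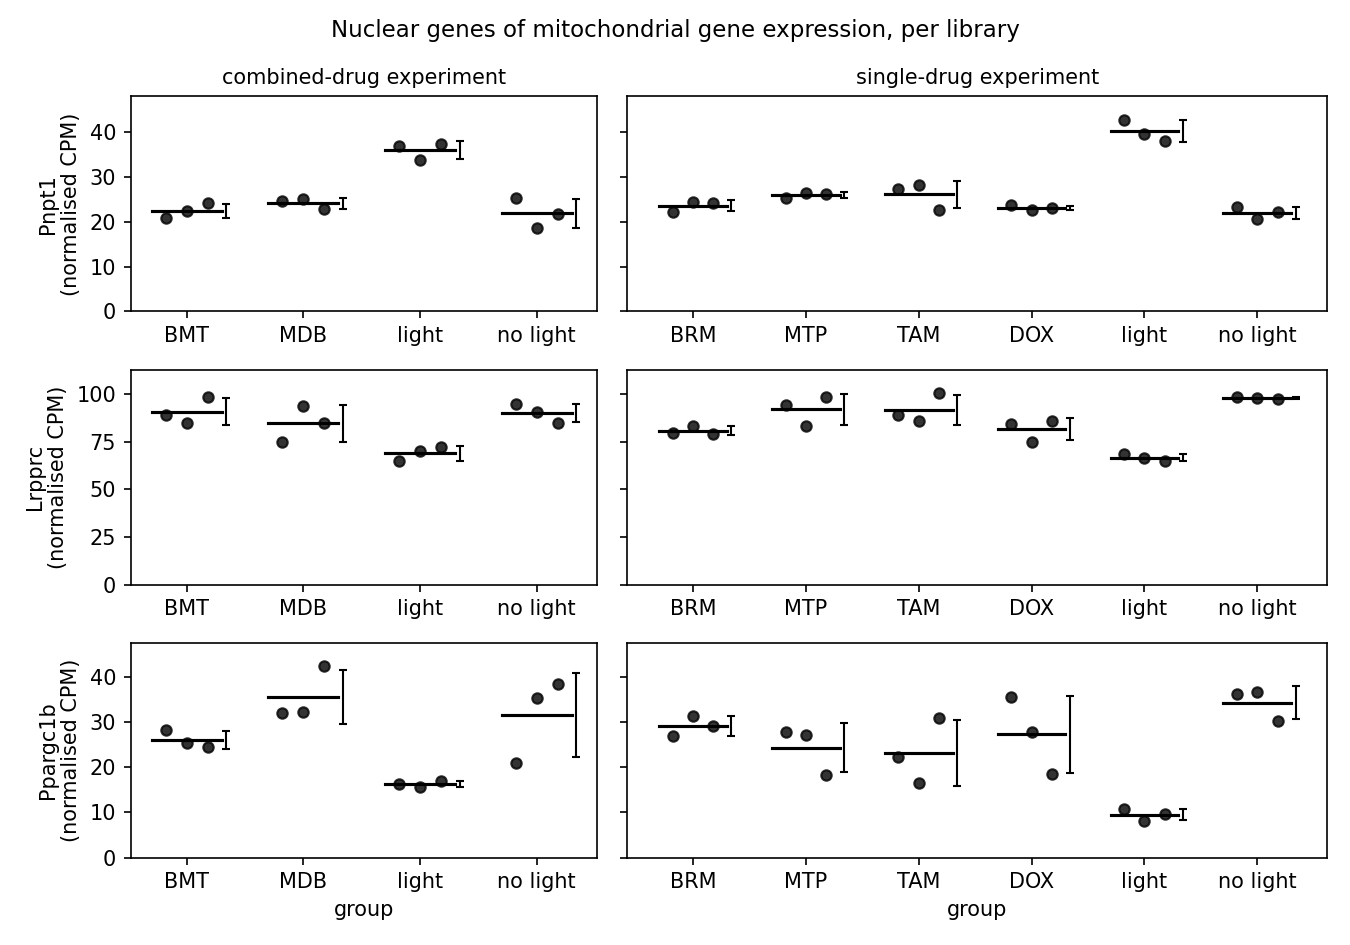
Normalised CPM of Pnpt1, Lrpprc and Ppargc1b by group, with 1 point per library, a line at the group mean and a bar of 1 SD (n = 3). In light libraries Pnpt1 is above, and Lrpprc and Ppargc1b are below, all no-light libraries of the same experiment.

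The authors' deposited tables of changed transcripts list 521 transcripts for the combined-drug experiment and 622 for the single-drug experiment, and 0 of them are mitochondrial. The authors' deposited normalised tables hold 13 mitochondrial transcripts in each experiment.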

How the data were processed

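Tools named in the submitters' processing notes are Trimmomatic, Bowtie2, TopHat2, eXpress, edgeR and limma with genome build GRCm38.p3. No version of these tools was stated in the sources used. The authors deposited expected counts per transcript (eXpress effective counts), which are fractional and not normalised. They also deposited FPKM from eXpress and TMM-normalised FPKM, and their tables of changed transcripts give an adjusted p-value per transcript. The members and lists were chosen with earlier results of these data known.

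Expected counts were summed per gene identifier and rounded. Genes passing filterByExpr were fitted per experiment with all groups (edgeR 4.0.16, R 4.3.3, TMM, quasi-likelihood F test, Benjamini-Hochberg adjustment over all genes tested, threshold 0.05), 16 comparisons in all. Copies were transcripts matching a mitochondrial gene in blastn 2.17.0 at 95% identity or more over at least 80% of their length. Sequences are GENCODE M21 transcripts (GRCm38). No sum over members was tested. The fit was checked on simulated counts.

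By rule, all messages and rRNAs past the filter are described, with values per library for mt-Rnr1, mt-Rnr2, mt-Co1, mt-Cytb, mt-Nd6 and for called members (at most 4 a comparison, by adjusted p). The text names the 5 tRNAs with most counts and at most 4 called factors a comparison. mt-Nd3 and some factor values beyond these were added after they were seen. Alternatives were RLE size factors, library sizes from nuclear genes, no filter, DESeq2 1.42.0, limma voom 3.58.1, the replicate number as a block, only the groups compared, FPKM with limma on log2 (FPKM + 1), and each library left out. Added after the data were examined were copies summed with their genes and library totals without TMM. The requested depth was 50 M read pairs per library.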

Additional observations from a re-analysis of the deposited data

How the results depend on the processing

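Results are named by comparison, and shares of all genes called under these alternatives are not given here. DESeq2 called 1 mitochondrial gene for light in the combined-drug experiment, 11 for BMT over light, 3 for BMT over MDB, 8 for light in the single-drug experiment, 6 for MTP and 5 for TAM over light and 2 for BRM over no light. The authors' TMM-normalised FPKM, of which the tables hold 13 mitochondrial transcripts, gave 0 for BMT over light, 0 for light in the single-drug experiment and 0 for TAM over light. Library totals without TMM gave 1 (higher) for light in the combined-drug experiment, 2 for BMT over light, 0 for light in the single-drug experiment and 0 for TAM over light. They moved the median of all genes to 0.16 for light in the combined-drug experiment and 0.23 in the single-drug experiment. limma voom called 3 for MTP and 5 for TAM over light. RLE size factors called 3 for TAM over light, the fit of only the groups compared 0, and the replicate block 2. Copies added gave 0 for MTP over light. The causes were not tested.

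With each library left out, counts ran from 0 to 9 for BMT over light, 1 to 6 for light in the single-drug experiment (1 without no-light replicate 3, 6 without light replicate 1), 1 to 3 for MTP (3 without MTP replicate 2 or light replicate 1) and 0 to 5 for TAM over light. The other 12 comparisons stayed at 0. Libraries were not treated as paired by replicate number. The median correlation of same-numbered libraries was -0.01 in each experiment. Single pairs ran from -0.22 to 0.56 in the combined-drug and from -0.26 to 0.44 in the single-drug experiment, so the median cannot exclude pairing. The replicate block changed no other count by over 1.5 times (BMT over light gave 8).

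As percent of summed FPKM the mitochondrial share was 18.7 for BMT, 15.6 for MDB, 16.4 for light and 16.8 for no light in the combined-drug experiment, and 15.8 for BRM, 18.5 for MTP, 17.95 for TAM, 16.4 for DOX, 16.9 for light and 17.8 for no light. With copies it was 9.90, 8.22, 8.31 and 8.76, and 8.35, 9.20, 9.21, 8.48, 8.64 and 9.06 percent of counts in the same orders. The rRNA part with copies in the total was 3.07, 3.13, 3.67 and 3.01, and 2.98, 2.97, 2.95, 3.05, 3.36 and 3.03 percent. These counts cover called mitochondrial genes and at most 4 called nuclear factors a comparison, by smallest adjusted p. Among them 637 of 720 alternative values kept direction and call, 83 kept direction only and 0 changed direction. Calls of mitochondrial genes were kept in 8 of 16 alternatives (mt-Cytb with TAM) to 15 of 16 (mt-Nd4l with MTP). Those of the nuclear factors covered were kept in 11 of 16 (Tfb2m with BRM and with DOX) to 16 of 16 (Pnpt1 with BRM, for example). Other factor calls named above were less steady in part and are not in these counts. The Ppargc1b call with BMT, for example, held in 0 of 6 fits that left out a library.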
